A study of Homo sapiens with 6 samples.

Results

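The 3 interferon lambda genes IFNL1, IFNL2 and IFNL3 and the 6 genes for the chains of the interferon receptors, IFNLR1, IL10RB, IFNAR1, IFNAR2, IFNGR1 and IFNGR2, were followed in MDA-MB-231 cells, a human triple-negative breast cancer line. These 9 genes of the 63241 Ensembl genes in the count files were matched by symbol, and all 9 were found. They were selected on their counts with NCD against DMSO, the comparison reported here, so their counts and fold changes are given as a description and carry no p-value. Cells of this 1 wild-type line received either 0.1% DMSO as vehicle (group DMSO, 3 libraries) or 5 μM nitidine chloride, a plant alkaloid (group NCD, 3 libraries), and total RNA was taken after 24 h. Free-text lines of NCD replicates 2 and 3 name other cell line numbers, whereas the cell line field of every library gives MDA-MB-231. No label ties a library to a separate culture, so errors and p-values measure only the spread between these libraries, which may be technical.

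Interferons are cytokines, and those of types I and III are made by cells that sense viral or misplaced nucleic acid. Type I interferons (alpha, beta and relatives) bind a receptor made of IFNAR1 and IFNAR2, and type II interferon (gamma) binds IFNGR1 and IFNGR2. Type III interferons, the lambda family, bind IFNLR1 paired with IL10RB, a chain that the receptors for IL-10, IL-22 and IL-26 also use. IFNLR1 is known for its restriction to epithelial and a few other cell types, whereas the other chains are found on most cells. Behind the receptors, the kinases JAK1 and TYK2 (types I and III) or JAK1 and JAK2 (type II) phosphorylate STAT proteins, which switch on interferon-stimulated genes.

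The libraries held 18223594 to 19410833 counts with DMSO and 18232169 to 21629653 with NCD. Levels are given as CPM, depth-scaled counts on the library size that edgeR's TMM method gives, and 15295 genes passed edgeR's filter on low counts. VIM, CD44, CAV1, EGFR and AXL, markers of this mesenchymal-like line, were all detected, with a summed level of 5639 to 5890 CPM with DMSO and 3595 to 3880 CPM with NCD. All 5 were lower in every NCD library than in any DMSO library, by unequal amounts. VIM was at 2956 to 3156 CPM with DMSO and 2491 to 2749 CPM with NCD. EGFR was at 161 to 183 CPM with DMSO and 26.1 to 30.1 CPM with NCD. The 4 luminal and epithelial markers summed to 35.6 to 38.7 CPM with DMSO and 58.5 to 62.9 CPM with NCD, nearly all of it ERBB2, while ESR1, PGR and CDH1 reached at most 0.384 CPM in any library. The 8 leukocyte markers summed to 0.486 to 0.713 CPM with DMSO and 0.658 to 1.14 CPM with NCD, and 4 of them, MS4A1, NKG7, CLEC4C and LILRA4, had 0 counts in every library. The 4 stromal and endothelial markers summed to 4.75 to 5.87 CPM with DMSO and 19.0 to 20.9 CPM with NCD. COL1A1 was at 2.32 to 3.56 CPM with DMSO and 12.7 to 14.8 CPM with NCD. PDGFRB, the next largest part, was at 1.70 to 1.87 CPM with DMSO and 5.13 to 6.29 CPM with NCD. The part of these marker shifts in the results was not tested. In bulk RNA, fewer cells with a transcript and less of it per cell cannot be told apart.

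The sequences upstream of the lambda ligands and of their private receptor chain are shown because IFNL1 and IFNL3 had counts only with NCD, and because IFNLR1 had the largest fold change among the receptor genes. They run 5′ to 3′ on the strand of the gene, come from RefSeq on GRCh38.p14, and leave out bases inside annotated exons. Capitals mark the core of the interferon-stimulated response element (GAAA, any 2 bases, GAAA, here in its reverse complement TTTC, any 2 bases, TTTC) or the core of the interferon gamma activated site (TTC, any 3 bases, GAA).
IFNL1 (chr19:39296157-39296324, plus strand): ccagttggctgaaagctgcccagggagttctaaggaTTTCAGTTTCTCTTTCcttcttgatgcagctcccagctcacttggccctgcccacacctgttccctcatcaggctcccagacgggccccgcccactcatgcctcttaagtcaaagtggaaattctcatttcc
IFNL3 (chr19:39245251-39245500, minus strand): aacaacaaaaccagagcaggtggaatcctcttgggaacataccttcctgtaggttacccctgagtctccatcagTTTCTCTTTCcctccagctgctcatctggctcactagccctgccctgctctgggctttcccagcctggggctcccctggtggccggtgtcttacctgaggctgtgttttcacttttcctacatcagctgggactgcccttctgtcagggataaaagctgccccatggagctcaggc
IFNLR1 (chr1:24187290-24187539, minus strand): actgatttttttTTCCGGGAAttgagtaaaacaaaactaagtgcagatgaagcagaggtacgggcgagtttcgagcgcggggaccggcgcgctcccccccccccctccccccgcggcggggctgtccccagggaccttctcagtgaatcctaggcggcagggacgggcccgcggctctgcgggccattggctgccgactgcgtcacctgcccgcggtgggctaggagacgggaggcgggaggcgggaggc
Upstream of IFNL1 the response element core occurred at 2 overlapping places, beginning 214 and 208 bases before the RefSeq transcript start. Upstream of IFNL3 it began 176 bases before the start. The IFNL2 promoter differed from that of IFNL3 at 1 of 300 bases, C31T, with the IFNL2 base first and positions counted from the 5′ end, and it held the same core at the same distance. On either strand this core was found in 3.02% of the 35116 RefSeq windows of 250 bases before a start. Among the 8 members with a RefSeq entry, in 11 such windows, it was found for the 3 lambda genes and for no receptor gene. Bases outside annotated exons numbered 97 for IL10RB, 0 and 186 in the windows of IFNGR1 and 0 for IFNGR2. IFNAR2 had no entry, and a second IFNL3 window, with 127 such bases, held no core. No contrast between lambda and receptor genes is read from these matches. The gamma activated site core, a palindrome, lay 238 bases before the RefSeq start of IFNLR1 and was found in 6.57% of all windows. That start, 24187289, lies inside the IFNLR1 gene model of GENCODE release 29, which begins at 24187959 on the minus strand. The printed IFNLR1 bases and this core thus lie within that gene model. These matches describe letters in a window and do not show that a factor binds there.

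IFNL1 encodes the interferon lambda 1 protein, a secreted antiviral cytokine. The gene (ENSG00000182393) lies on chromosome 19, at 39296325 to 39298673 on the plus strand (GRCh38, GENCODE release 29). Its count was 0 in each of the 3 DMSO libraries, and 7, 10 and 6 in NCD replicates 1, 2 and 3. All 3 NCD libraries therefore held IFNL1 reads and no DMSO library did. Over the NCD group this was 23 counts, or 0.361 CPM, with an exact 95% Poisson interval of 0.229 to 0.542 CPM. The 0 counts with DMSO allow a level of up to 0.0571 CPM (3 counts over the group), so IFNL1 was at least 6.32-fold higher with NCD when its NCD count is taken as exact. With the counting error of both groups, the exact 95% lower limit of the ratio was 4.74. The bound of 6.32 falls to 4.195 without DMSO replicate 2 and to 4.13 without DMSO replicate 3, since the same 3 counts then stand against fewer libraries. Intervals and limits cover counting error only. They leave out further spread between libraries and the selection of the genes on these counts, so they describe the counts and test nothing.

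IFNL2 (ENSG00000183709, chromosome 19, 39268514 to 39270092, plus strand) and IFNL3 (ENSG00000197110, chromosome 19, 39243553 to 39245129, minus strand) encode near-identical lambda interferons. IFNL2 had 0 counts in all 6 libraries. Taken as up to 3 counts over each group, this allows up to 0.0571 CPM with DMSO and 0.0471 CPM with NCD. The exact 95% Poisson interval, as used for IFNL1, reaches 0.0579 CPM with NCD. For IFNL3 the DMSO libraries held no count, and NCD replicates 1, 2 and 3 held 1, 4 and 0. Most of the 5 IFNL3 counts thus came from NCD replicate 2, which also had the most IFNL1 counts. The exact 95% lower limit of the IFNL3 ratio of NCD to DMSO was 0.756. As for IFNL1, this limit covers counting error only and tests nothing. With so few counts, no difference in IFNL3 is read. Of the 50-base stretches of the IFNL3 transcript, 32.1% also occur in that of IFNL2, so the division of reads between them is uncertain, while 0% occur in that of IFNL1. Summed over the 3 genes the NCD libraries held 8, 14 and 6 counts and the DMSO libraries 0. The low-count filter removed all 3 lambda genes, so the fit across genes does not cover them.

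**Figure D1:**
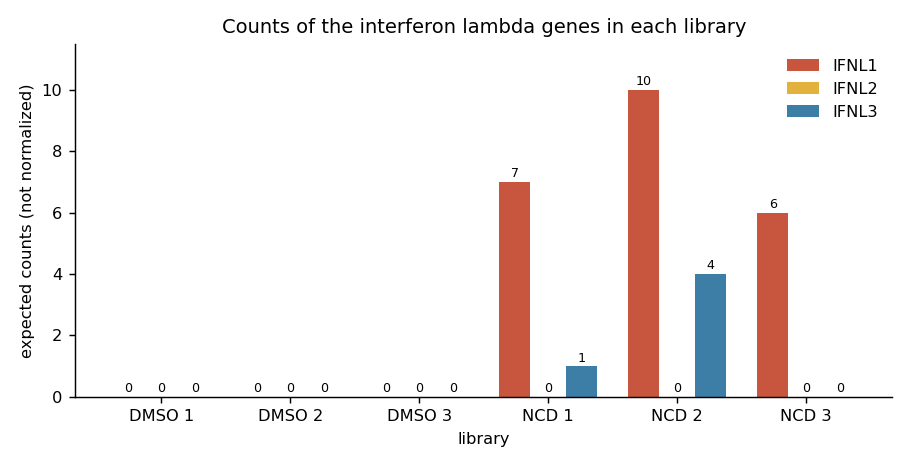
Expected counts (y axis, not normalized) of IFNL1, IFNL2 and IFNL3 in each of the 6 libraries (x axis), with the count written above each bar. IFNL1 had 6 to 10 counts in the NCD libraries and 0 in the DMSO libraries, and IFNL2 had 0 in all 6.

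No other interferon gene was detected. IFNL4, the interferon alpha genes, IFNB1, IFNE, IFNK, IFNW1 and IFNG, 19 genes in all, had 0 counts in every library. For each of them 0 counts allow up to 0.0571 CPM with DMSO and 0.0471 CPM with NCD. Among the interferon genes examined, counts were thus assigned to IFNL1 and IFNL3 alone, with the division between IFNL2 and IFNL3 uncertain as given above.

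IFNLR1, the chain that gives the lambda receptor its ligand specificity (ENSG00000185436, chromosome 1, 24154157 to 24187959, minus strand), was the least abundant receptor gene. Its expected counts were 30.0, 33.0 and 46.0 in the DMSO libraries against 117.34, 85.0 and 107.06 in the NCD libraries. On the CPM scale these were 1.81, 1.87 and 2.52 with DMSO and 5.13, 4.40 and 4.99 with NCD. Every NCD library lay above every DMSO library. Group means were 2.07 ± 0.396 CPM for DMSO and 4.84 ± 0.388 CPM for NCD (SD, n = 3 each). The log2 fold change was 1.22 (standard error 0.19), or 2.33-fold. By the rule used to call all genes, an adjusted p (Benjamini-Hochberg) under 0.05 together with a log2 fold change beyond 1 in either direction, IFNLR1 counted as called and the other 5 receptor genes did not. For genes selected on this comparison that count is a description and no test. By this rule 31.0% of all 15295 tested genes were called, 13.5% higher and 17.5% lower, and nothing is read from the members' count beside it. With library totals in place of TMM, 56.2% of the called genes were higher, against 43.6%.

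By the Euclidean distance between profiles of log2(CPM + 1) over the 6 libraries, centred on the DMSO mean, the tested genes most like IFNLR1 were RAB42, ASB6 and MYB, at distances of 0.13, 0.14 and 0.144. With 2 groups of 3 libraries, this likeness mostly reflects a similar difference between the groups on the log2(CPM + 1) scale. In the edgeR fit the log2 fold changes of RAB42, ASB6 and MYB were 1.6, 0.95 and 1.45, against 1.22 for IFNLR1. Mean levels with DMSO and NCD were 0.946 and 2.895 CPM for RAB42, 29.59 and 57.28 for ASB6, and 1.239 and 3.374 for MYB.

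IL10RB, the shared second chain of the lambda receptor (ENSG00000243646, chromosome 21, 33266358 to 33310187, plus strand), had more reads, both in counts and per kb of exon. Its level was 31.3, 27.8 and 30.75 CPM with DMSO and 39.1, 35.7 and 37.7 CPM with NCD. The NCD libraries again lay above all DMSO libraries, by a smaller margin than for IFNLR1. The log2 fold change was 0.33 (standard error 0.08), 1.25-fold. IL10RB shares exons with IFNAR2-IL10RB, a read-through gene that joins the neighbouring IFNAR2 and IL10RB genes into 1 transcript. That gene had 88.98, 102.16 and 119.69 expected counts with DMSO and 122.79, 53.40 and 51.05 with NCD, so NCD replicate 1 stood apart from the other NCD libraries. Read-through counts were 14.6%, 17.2% and 17.6% of the read-through plus IL10RB counts with DMSO and 12.1%, 7.19% and 5.93% with NCD. The share was lower in every NCD library than in any DMSO library. With the read-through counts added to IL10RB, its log2 fold change was 0.19.

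**Figure D2:**
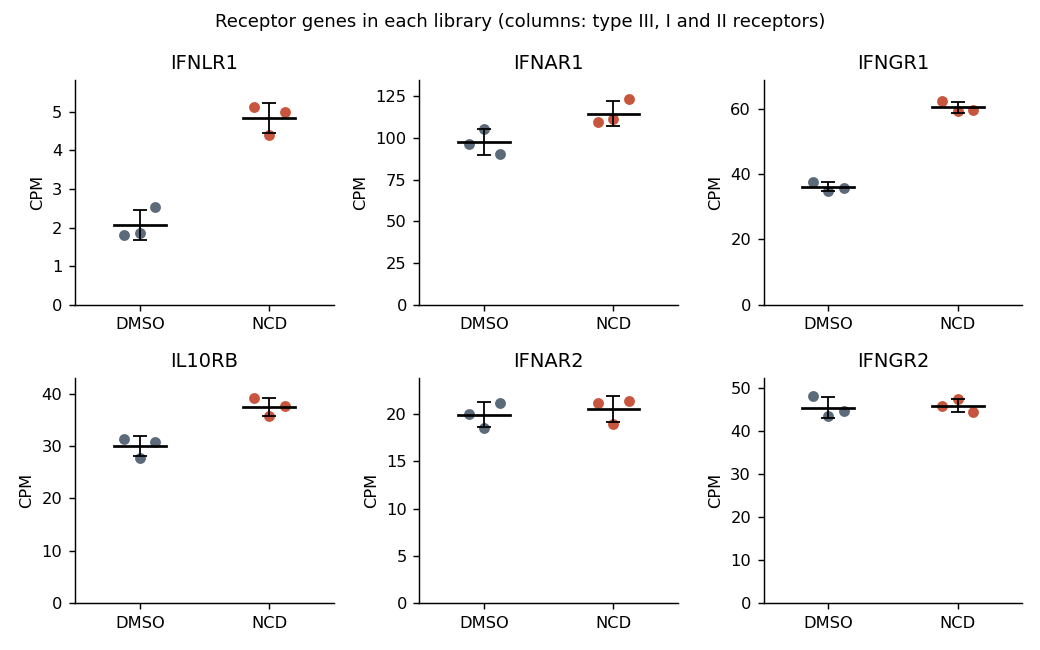
CPM (y axis, starting at 0) of the 6 receptor genes with DMSO and NCD (x axis), with points for libraries, a line for the mean and bars for the SD (n = 3). The groups do not overlap for IFNLR1, IL10RB, IFNAR1 and IFNGR1 and overlap for IFNAR2 and IFNGR2.

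IFNAR1, the type I receptor chain that recruits TYK2 (ENSG00000142166, chromosome 21, 33324477 to 33359862, plus strand), had the most counts of the 9 genes. Its level was 96.6, 105.5 and 90.5 CPM with DMSO and 109.5, 111 and 123 CPM with NCD. The groups did not overlap, but the highest DMSO library was close to the lowest NCD library. The log2 fold change was 0.23 (standard error 0.08). IFNAR2, the ligand-binding chain that recruits JAK1 (ENSG00000159110, chromosome 21, 33229901 to 33265675, plus strand), had 20.1, 18.6 and 21.2 CPM with DMSO and 21.2, 18.9 and 21.4 CPM with NCD. These ranges overlapped, and the log2 fold change of 0.04 (standard error 0.09) was smaller than its error. IFNAR2 also shares exons with the read-through gene and, on the opposite strand, with the noncoding gene IL10RB-DT. IL10RB-DT had 55.53 to 91.70 counts with DMSO and 76.16 to 108.13 with NCD, and without stranded counting its reads cannot be told apart from those of IFNAR2. With the read-through counts added, the log2 fold change of IFNAR2 was -0.10.

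IFNGR1, the ligand-binding chain of the interferon gamma receptor (ENSG00000027697, chromosome 6, 137197484 to 137219449, minus strand), had the second largest log2 fold change of the receptor genes. Its level was 37.5, 34.9 and 35.8 CPM with DMSO and 62.4, 59.3 and 59.6 CPM with NCD. The groups were far apart relative to their spread, with means of 36.1 ± 1.37 and 60.5 ± 1.71 CPM (SD, n = 3 each). The log2 fold change was 0.75 (standard error 0.07), 1.68-fold, which is below the fold threshold. IFNGR2, the signalling chain that recruits JAK2 (ENSG00000159128, chromosome 21, 33402896 to 33479348, plus strand), had 48.3, 43.5 and 44.8 CPM with DMSO and 46.0, 47.55 and 44.5 CPM with NCD. The groups overlapped fully, at a log2 fold change of 0.01 (standard error 0.07). IFNGR2 overlaps TMEM50B on the opposite strand over 380 exonic bases, and TMEM50B had a log2 fold change of 0.56 (standard error 0.07). Reads of that stretch cannot be assigned to either gene without strand information.

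Of the 6 receptor genes, 4 had NCD values above all DMSO values, where 37.3% of all tested genes did, 35.3% had NCD values below all DMSO values and 72.6% did not overlap in either direction. Their median log2 fold change was 0.28, against 0.04 over all 15295 tested genes. The median was 0.06 over the 4994 tested genes whose genomic span lies within the range of these 6 genes. The 6 genes were selected on this comparison, so nothing is read from their count or median beside these. A part of gene span was not tested. Under library totals, which shift the median of all genes by 0.20, each receptor gene was higher by about that amount, and IFNAR2 and IFNGR2 stood at 0.24 and 0.21. The small differences of IFNAR2 and IFNGR2 have no stable sign over the scalings and fits tried, with ranges of -0.10 to 0.24 and -0.03 to 0.21. Fitting without each library in turn left IFNLR1 between 1.11 and 1.36 and IFNGR1 between 0.70 and 0.76.

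**Figure D3:**
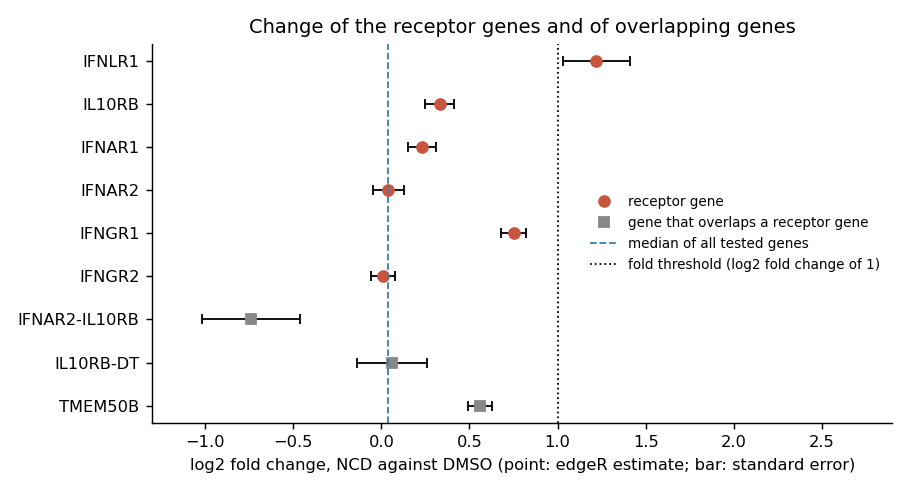
Log2 fold change of NCD against DMSO (x axis) with its standard error for the 6 receptor genes (circles) and for 3 genes that overlap them (squares), beside the median of all tested genes (dashed) and the fold threshold (dotted). IFNLR1 at 1.22 lies past the threshold, IFNGR1 at 0.75 lies short of it, and IFNAR2 and IFNGR2 lie at 0.04 and 0.01.

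The chains that form 1 receptor did not differ by the same amount between the groups. Counts were divided by the length of the annotated exons to compare genes. IL10RB exceeded IFNLR1 by 18.75, 16.1 and 13.2 times with DMSO and by 8.26, 8.78 and 8.19 times with NCD, so the excess was smaller in every NCD library. The ratio of IFNGR1 to IFNGR2 was 0.703, 0.724 and 0.721 with DMSO and 1.23, 1.13 and 1.21 with NCD. IFNGR1 was thus the scarcer gamma receptor transcript with DMSO and the more abundant with NCD. The ratio of IFNAR1 to IFNAR2 was 3.603 ± 0.521 with DMSO and 4.10 ± 0.277 with NCD (SD, n = 3 each), and these ranges overlapped. These ratios need no scaling between libraries, but they depend on the exon lengths used and, for IL10RB and IFNAR2, on the handling of the read-through gene.

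**Figure D4:**
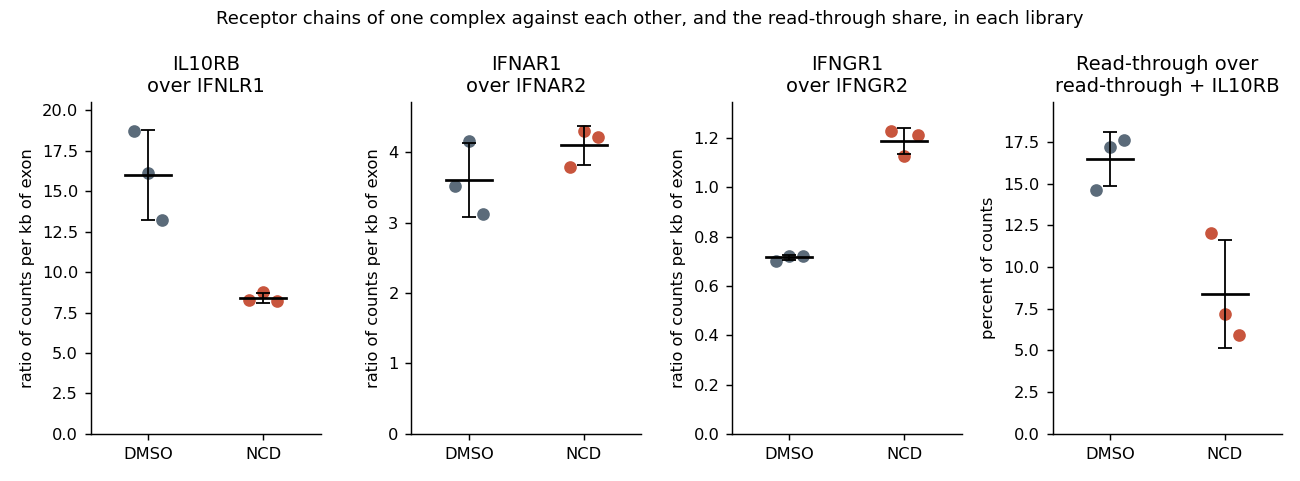
Ratio of the chains of each receptor in counts per kb of exon (3 left panels, y axis) and the read-through share of the read-through plus IL10RB counts in percent (right panel) with DMSO and NCD (x axis), with points for libraries, a line for the mean and bars for the SD (n = 3). Only the ratio of IFNAR1 to IFNAR2 overlaps between the groups among these 4 panels.

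Per length, the order with DMSO was IFNAR1 with 15.5 ± 1.20 CPM per kb of exon, IFNGR2 with 15.4 ± 0.83, IFNGR1 with 11.0 ± 0.417, IL10RB with 6.59 ± 0.416, IFNAR2 with 4.32 ± 0.286 and IFNLR1 with 0.42 ± 0.0804 (SD, n = 3). Among these neighbours, the ranges of IFNAR1 and IFNGR2 overlapped and the others did not. With NCD, IFNGR1 came first with 18.5 ± 0.522 CPM per kb, and its range overlapped that of IFNAR1 at 18.2 ± 1.19. IFNGR2 followed at 15.5 ± 0.519, IL10RB at 8.25 ± 0.38, IFNAR2 at 4.44 ± 0.301 and IFNLR1 at 0.983 ± 0.0788, with no overlap between neighbours. IFNL1 stood below all receptor genes in both groups and had 0.429 ± 0.152 CPM per kb with NCD. IL10RB, IFNAR1, IFNAR2 and IFNGR2 lie within 249.4 kb of chromosome 21 on the same strand, with no other protein-coding gene of that strand between them apart from the read-through gene.

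Other genes of the pathway were taken from 7 lists and tested in the same fit across all genes, with p-values from edgeR's quasi-likelihood test and Benjamini-Hochberg adjustment. Of the 106 listed genes, 75 could be tested, 37 were called higher and 7 lower with NCD, and their median log2 fold change was 0.96. Of all 15295 tested genes, 13.5% were called higher and 17.5% lower, and the counts of each list below stand beside these shares. The lists were written with earlier results of these data known.

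Directly behind the receptors, 2 of 6 genes were called higher and 2 lower (list median 0.09). STAT2 and IRF9, parts of the transcription factor complex of type I and III signalling, rose from 41.5 ± 5.53 to 122 ± 8.14 CPM and from 12.7 ± 0.358 to 34.1 ± 1.27 CPM (SD, n = 3; log2 fold change 1.55, adjusted p = 1.24e-06, and 1.42, adjusted p = 5.02e-07, edgeR). JAK1, the kinase that all 3 receptor types use, fell from 147 ± 11.4 to 66.3 ± 4.405 CPM (log2 fold change -1.15, adjusted p = 1.77e-06, edgeR). JAK2, the second kinase of the gamma receptor, fell from 7.11 ± 1.49 to 2.335 ± 0.181 CPM (log2 fold change -1.61, adjusted p = 6.2e-05, edgeR). TYK2 was not called, with a log2 fold change of 0.28 (standard error 0.08). With library totals 1 of the 2 falls was no longer called.

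Genes that restrain interferon receptors moved in both directions, 4 of 11 higher and 3 lower (list median -0.40). ISG15, a ubiquitin-like modifier, and USP18, which removes it and blocks IFNAR2, rose by log2 fold changes of 3.08 and 1.52 (adjusted p = 3.61e-07 and 1.71e-05, edgeR). PTPN6, a phosphatase mostly known from blood cells, rose from 0.343 ± 0.0167 to 1.76 ± 0.4615 CPM (SD, n = 3). BTRC, the ubiquitin ligase subunit that marks IFNAR1 for degradation, fell from 37.45 ± 0.969 to 6.82 ± 1.39 CPM (SD, n = 3; log2 fold change -2.45, adjusted p = 4.86e-07, edgeR).

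Among 16 sensors and inducers of interferon genes, 6 were called higher and 2 lower (list median 0.76). DHX58, a relative of the RNA sensor RIG-I, rose by a log2 fold change of 2.61, and the regulatory factors IRF7 and IRF1 rose by 2.49 and 2.04 (adjusted p = 1e-05, 4.51e-07 and 6.22e-08, edgeR). NFKB1, an NF-kB subunit, fell by 2.08 on the log2 scale (adjusted p = 3.13e-07, edgeR).

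Targets of type I and III interferon had the highest list median, 1.42, with 21 of 30 tested genes called higher and 0 called lower by edgeR. DESeq2 also called 0 lower, and 0 were lower at an unadjusted p below 0.05. OASL, IFIT2, IFIT3 and IFIT1, antiviral effectors, rose by log2 fold changes of 4.69, 4.07, 2.84 and 2.51 (adjusted p = 1.35e-08, 3.31e-09, 1.24e-08 and 1.16e-08, edgeR). Of the 14 listed targets of interferon gamma, 5 had at most 12 counts in any library and were not tested. Among those 5, 2 had 0 counts in every library. Of the 9 tested targets, 4 were called higher and 0 lower by edgeR or DESeq2 (list median 0.59). Without the fold threshold, 5 were higher and 4 lower at an adjusted p below 0.05 (edgeR). The 4 lower genes, named after their values were seen, were CIITA, CD274, HLA-DRA and GBP2. Their log2 fold changes were -0.89, -0.54, -0.49 and -0.4. IRF1, ICAM1, WARS1 and GBP4 were the 4 called higher, with ICAM1, an adhesion molecule, at a log2 fold change of 1.66 (adjusted p = 9.36e-08, edgeR). IRF1 stands in both this list and that of inducers.

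Of the 9 structural relatives of the receptors and other ligands of IL10RB, 5 had too few counts to be tested. IL10, IL22 and IL26 had 0 counts in every library, and IL10RA and IL22RA2 had at most 2 counts in any library. IL22RA1, which pairs with IL10RB in the IL-22 receptor, rose from 0.343 ± 0.1495 to 2.265 ± 0.368 CPM (SD, n = 3; log2 fold change 2.70, adjusted p = 8.66e-05, edgeR), the 1 call among 4 tested genes. By edgeR or DESeq2 0 of them were called lower, and 1 was lower at an unadjusted p below 0.05. This was F3, tissue factor of blood clotting, at 115 ± 2.555 CPM with DMSO and 59.1 ± 1.61 CPM with NCD (SD, n = 3), whose log2 fold change of -0.96 was short of the fold threshold (adjusted p = 8.13e-07, edgeR), and which is named after its values were seen. It was called lower without NCD replicate 1.

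**Figure D5:**
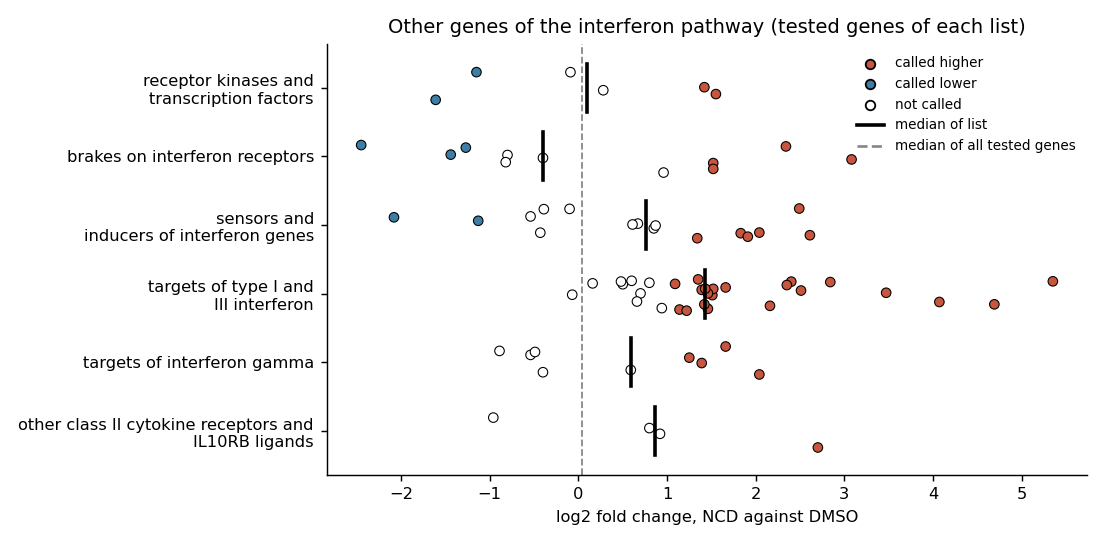
Log2 fold change of NCD against DMSO (x axis) for the tested genes of each pathway list (y axis), with filled points for genes called higher or lower, black bars for list medians and a dashed line for the median of all tested genes. The list of type I and III interferon targets has the highest median, 1.42, and the list of brakes the lowest, -0.40.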

How the data were processed

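RNA from 3 DMSO and 3 NCD libraries was sequenced. The authors used HISAT2 for alignment to the human genome, estimated expected counts per Ensembl gene with RSEM and deposited these expected counts without normalization, 1 file per library. GRCh38 is listed in the submitters' processing notes, and versions, annotation release and strandedness are not given in the sources used here. In each file 25 lines of stray text held no count and were skipped. Symbols matched 62720 of 63241 identifiers, and gene models came from GENCODE release 29 (58228 identifiers).

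Expected counts were rounded and tested with edgeR 4.0.16 (R 4.3.3): filterByExpr, TMM, glmQLFit and glmQLFTest, over all 6 libraries. Calls needed an adjusted p under 0.05 (Benjamini-Hochberg) and a log2 fold change beyond 1 in either direction. The pipeline was run on simulated data in which far fewer genes changed than were called here. That run does not test the scaling between libraries in these data. No pair of libraries of a group was alike within sampling noise. Chi-square per degree of freedom was 2.05 between NCD replicates 1 and 2. Between NCD replicate 3 and these it was 14.4 and 12.9. Between DMSO libraries it was 4.17 to 15.4. Members and gene lists were chosen with earlier results of these data known. Named genes were the members, every gene of the receptor kinase list except 1 that is not reported here, up to 4 called genes per list with the largest absolute change and a mean of at least 1 CPM, 3 nearest profiles for IFNLR1, and genes overlapping a member. Alternatives were DESeq2 1.42.0, other scalings and filters, a prior count of 2, summed lambda genes, added read-through counts, a replicate block and each library left out.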

Additional observations from a re-analysis of the deposited data

How the results depend on the processing

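Without a fold threshold 10602 of all tested genes changed and 69 of the listed pathway genes, 51 higher and 18 lower, by construction. Under the other settings both counts stayed within 1.5 times the main ones of 4736 and 44, and without each library in turn they ranged from 4653 to 5049 and from 44 to 46. Keeping only genes with 10 or more counts in each library, which tests fewer genes, left 2 of the genes that restrain the receptors called higher in place of 4, and 0 of the 2 tested relatives of the receptors in place of 1 of 4. Library totals left 1 receptor kinase and 1 inducer called lower in place of 2 each, and gave 2 relatives of the receptors called higher, as did leaving out DMSO replicate 1 or NCD replicate 1, the latter with 1 called lower. The log2 fold change of IFNLR1 lay between 1.11 and 1.42 over 13 alternatives. The fold bound of IFNL1, with its NCD count taken as exact, was 7.25 with library totals, lay between 4.13 and 7.05 without each library in turn, and was 7.70 for the 3 lambda genes summed. Deviations of libraries with the same replicate number correlated at 0.216, -0.185 and 0.023. DMSO replicates 1 and 3 correlated best with the NCD library of their own number, and DMSO replicate 2 with NCD replicate 3. Whether the numbers pair the libraries is not settled by this. With the replicate block 4723 genes and 44 pathway genes were called. Depth limits IFNL2 and IFNL3. With all genes kept, edgeR's log2 change for IFNL1 was 5.85, which depends on the prior count and is no bound.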
